A study of Drosophila melanogaster with 24 samples.

Results

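The 9 genes described here are the enzymes and the transporter that make, store, release and move trehalose and glycogen in the larval fat body of Drosophila melanogaster: Tps1, Treh, Tret1-1, Gyg, GlyS, GlyP, AGBE, UGP and Pgm1. They were chosen by gene symbol, for their place in these pathways, from 17698 genes counted. All 9 passed the low-count filter, as did 8707 genes in all. RNA was sequenced from pools of fat bodies of 50 larvae, with 4 pools in each of 6 groups. Tumour-bearing larvae (C855a-Gal4/UAS-scrib-RNAi) were dissected at days 4, 5, 8 and 11 from egg laying, and controls (C855a-Gal4/UAS-control-RNAi) at days 4 and 5. Both genotypes carry C855a-Gal4, which drives expression in epithelia. In the tumour groups it drives a hairpin RNA against scrib, which maintains the polarity of epithelial cells, and tumours form in the wing discs. Per the labels, tumour-bearing larvae do not pupate and go on growing for days as giant larvae. The controls end at day 5, so tumour days 8 and 11 have none of their own age here.

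Trehalose, a disaccharide of glucose, is the main blood sugar of insects, and the fat body makes it and releases it into the haemolymph. Glycogen is the branched glucose polymer in which the same organ stores carbohydrate. UDP-glucose is the common precursor of both, so the enzymes that supply it stand upstream of both products, and glycogen breakdown returns glucose phosphate that can be turned into trehalose.

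In trehalose metabolism, Tps1 (FBgn0027560, chromosome 2L:4388327-4392778, + strand) makes trehalose from UDP-glucose and glucose phosphate. Treh (FBgn0003748, 2R:21074018-21088945, + strand), trehalase, splits it into glucose. Tret1-1 (FBgn0050035, 2R:11665768-11674782, + strand) is a facilitative trehalose transporter of the cell membrane. In glycogen synthesis, Gyg (FBgn0265191, 2R:21200483-21210821, + strand), glycogenin, starts the chain. GlyS (FBgn0266064, 3R:15141843-15147531, - strand), glycogen synthase, extends it. AGBE (FBgn0053138, 2R:13171401-13174796, + strand) is the branching enzyme. GlyP (FBgn0004507, 2L:2130813-2137296, + strand), glycogen phosphorylase, releases glucose phosphate from the polymer. UGP (FBgn0035978, 3L:9350867-9358935, - strand) makes UDP-glucose, and Pgm1 (FBgn0003076, 3L:16126018-16128531, - strand), phosphoglucomutase, interconverts the phosphates of glucose. Coordinates span the whole gene in the BDGP6.54 annotation. The use of strand in counting is not known, so counts of overlapping genes may mix. UGP shares 602 exon bases with PGRP-LF and Treh shares 560 with Rbpn-5, both on the opposite strand, and Gyg shares 218 with CG44245 on its own strand. Mean counts per library were 3686 for UGP and 66.3 for PGRP-LF, 1851 for Treh and 235 for Rbpn-5, and 358 for Gyg and 103 for CG44245. Tret1-2, a close paralog of Tret1-1, was low in every group (group means of 1.87 to 5.52 CPM), and how reads shared between the pair were counted is not known.

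Levels are given as CPM, where TMM factors adjust each library's size. Each change is a log2 fold change with its SE, tested in edgeR (quasi-likelihood) and called where the p, adjusted over all 8707 genes by the Benjamini-Hochberg method, was under 0.05. Libraries held 16074877 to 23352151 counts, and member counts per library ran from 65 for Gyg to 73648 for Tps1. The labels do not state whether replicate pools were reared apart, and p-values therefore reflect only how these pools vary. In bulk RNA, fewer fat body cells and less RNA per cell cannot be told apart. All 10 fat body markers were detected in every group, and the list took 41.7 to 44.9% of counts in day 4 tumour libraries and 42.4 to 46.4% in day 4 controls, 29.4 to 38.1% in day 5 tumour libraries and 40.8 to 44.1% in day 5 controls, and 8.58 to 11.3% in day 11 tumour libraries. Taken singly, 2 of these markers were called higher and 3 lower with tumours at day 4 (median log2 change 0.20). At day 5, 4 were called higher and 2 lower (median 0.05), though the list took a smaller share of counts. Of all genes, 14.6% were called higher and 10.5% lower at day 4, and 26.7% higher and 28.2% lower at day 5. Salivary gland RNA was highest in a control library of each day, with summed CPM of 8 markers at 1491 in day 4 control replicate 2 and 1486 in day 5 control replicate 3, against 0.557 to 38.1 in day 4 tumour libraries and 0.253 to 242 in day 5 tumour libraries. The other control libraries were at 4.14 to 5.29 CPM at day 4 and at 29.5 to 260 CPM at day 5. Values without the 2 control libraries richest in this RNA are given where they change a result.

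At day 4, fat bodies of tumour-bearing larvae held more transcript of 7 of the 9 genes than controls of the same day, and of none less, where 25.2% of all genes were called (14.6% higher and 10.5% lower). The genes called higher were Tps1, the 3 glycogen synthesis genes Gyg, GlyS and AGBE, the phosphorylase GlyP, and the precursor genes UGP and Pgm1. Treh and Tret1-1 were not called. The median log2 change was 0.85 over the 9 genes and 0.01 over all genes, and the libraries of both groups did not overlap for 6 of the 9, against 18.2% of all genes.

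Gyg had the largest change of the 9, at 47.7, 75.9, 64.5 and 70.6 CPM in tumour libraries and 13.7, 32.0, 12.3 and 10.5 CPM in controls. Every tumour library lay above every control library, and control replicate 2 stood well above the other controls. The log2 change of Gyg was 1.92 ± 0.25 (adjusted p = 1.03e-05), and 2.42 without the 2 control libraries richest in salivary gland RNA. GlyS gave 191, 271, 217 and 207 CPM in tumour libraries and 83.2, 147.5, 78.5 and 77.9 CPM in controls. Again the groups did not overlap, with control replicate 2 the highest control, and the log2 change was 1.20 ± 0.18 (adjusted p = 4.14e-05). AGBE reached 694, 848, 838 and 743 CPM with tumours and 572, 620.0, 425 and 444 CPM in controls, a smaller log2 change of 0.60 ± 0.15 without overlap (adjusted p = 0.00536).

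GlyP, the only breakdown enzyme of glycogen among the 9, differed least among the called genes. Its levels were 327, 408, 366 and 383 CPM with tumours and 296, 364, 265 and 258 CPM in controls. The ranges overlapped, since control replicate 2 lay above tumour replicate 1. Its log2 change of 0.33 ± 0.10 (adjusted p = 0.0232) was not called when the model held only these 2 groups (adjusted p = 0.155) or when any one of tumour replicates 2 and 4 and control replicates 3 and 4 was left out (adjusted p = 0.051 to 0.0913).

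Upstream of both products, Pgm1 was at 581, 552, 615 and 581 CPM in day 4 tumour libraries and 301, 409, 258 and 251 CPM in controls (log2 change 0.93 ± 0.12, adjusted p = 1.21e-05). UGP was at 321, 334, 341 and 316 CPM with tumours and 174, 227, 162 and 149.6 CPM in controls (0.88 ± 0.11, adjusted p = 9.91e-06). For both genes the lowest tumour library exceeded the highest control, which was replicate 2. Tps1 was the most abundant of the 9, with 2703, 2064, 2654 and 2915 CPM in tumour libraries and 1482, 1575, 1403 and 1271 CPM in controls (0.85 ± 0.09, adjusted p = 1.12e-06). Tumour replicate 2 was the lowest of its group and still above all controls.

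The genes for splitting and moving trehalose were not called. Treh gave 94.7, 80.6, 68.3 and 97.0 CPM with tumours and 101, 76.8, 101 and 111 CPM in controls, with overlapping ranges and a log2 change of -0.19 ± 0.13 (adjusted p = 0.306). Tret1-1 gave 736, 726, 706 and 789.9 CPM with tumours and 892, 764, 741 and 683 CPM in controls, also overlapping (-0.06 ± 0.09, adjusted p = 0.687). Of the 8 salivary gland markers 7 were lower with tumours at day 4, and their part in these results was not tested. Without the control libraries richest in them, 7 of the 9 genes were again called, all higher. At day 4, 10 muscle markers summed to 180.5 to 262 CPM with tumours and 149.8 to 192 CPM in controls. The 9 haemocyte markers summed to 392 to 673 CPM with tumours and 368 to 518 CPM in controls, and 2 of them were higher. No marker of these 3 lists was at 0 throughout a group.

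**Figure D1:**
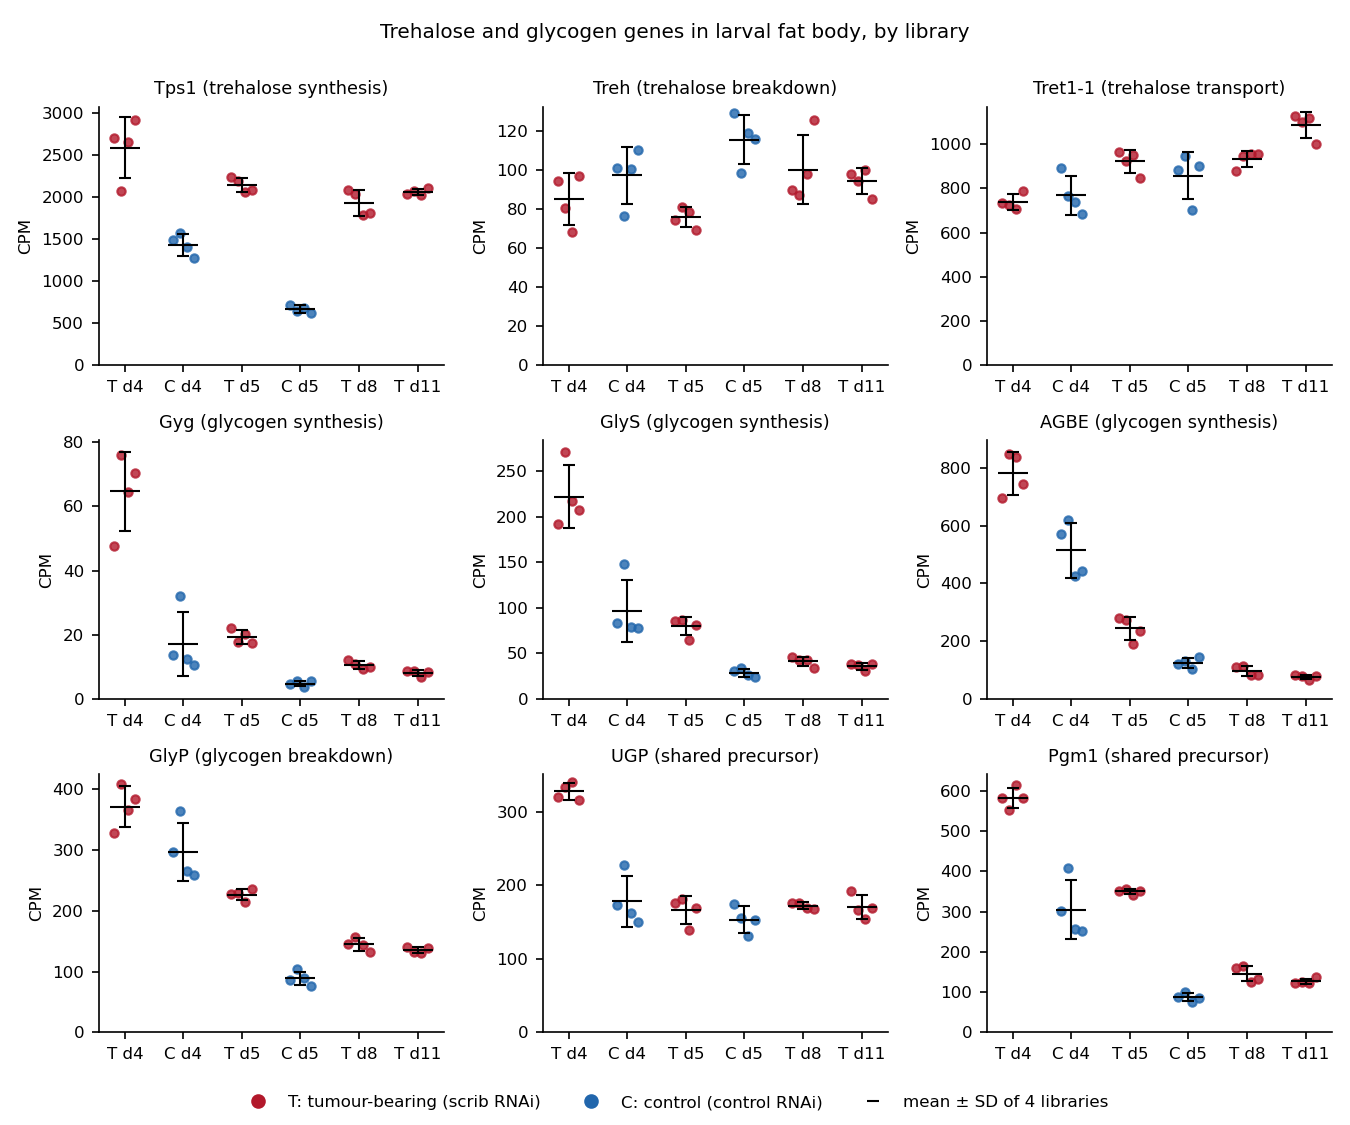
CPM of each of the 9 genes in every library, by group (T, tumour-bearing, red; C, control, blue; d, day after egg laying), with the group mean and SD of 4 libraries in black. Tps1 stays between 1781 and 2237 CPM in all tumour libraries from day 5 on while its day 5 controls lie at 625 to 722 CPM, and the glycogen genes are lower at each later tumour day up to day 8.

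At day 5, 6 of the 9 genes were again higher with tumours than in controls, and 1 gene, Treh, was lower. The groups share age, but tumour-bearing larvae do not pupate, so tumour and developmental stage cannot be told apart here. At this age 54.9% of all genes were called (26.7% higher and 28.2% lower), so a call of a single gene stands out less than at day 4. The median log2 change was 1.35 over the 9 genes and 0.03 over all genes. Libraries did not overlap for 7 of the 9 genes, against 48.6% of all genes.

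Tps1 was at 2237, 2183, 2060.3 and 2075 CPM in day 5 tumour libraries and 722, 639.8, 684 and 625 CPM in controls. The lowest tumour library was well above the highest control, and the log2 change was 1.68 ± 0.09 (adjusted p = 6.74e-12). Treh moved the other way, with 74.5, 81.2, 78.7 and 69.4 CPM with tumours and 129, 98.7, 119 and 116 CPM in controls. No tumour library reached the lowest control, and the log2 change was -0.61 ± 0.13 (adjusted p = 0.000469). Tret1-1 was not called, at 964, 925, 952 and 848 CPM with tumours and 884, 945, 704 and 899.8 CPM in controls (0.10 ± 0.09, adjusted p = 0.337).

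The glycogen synthesis genes were lower at day 5 than at day 4 in both genotypes, but higher with tumours on each day. Gyg was at 22.0, 17.7, 20.3 and 17.5 CPM in day 5 tumour libraries and 4.54, 5.48, 3.66 and 5.47 CPM in controls (log2 change 2.02 ± 0.26, adjusted p = 1.22e-06). GlyS was at 85.2, 87.1, 65.1 and 81.2 CPM with tumours and 30.1, 33.9, 25.9 and 23.8 CPM in controls (1.49 ± 0.18, adjusted p = 4.7e-07). AGBE was at 279, 272, 192 and 236 CPM with tumours and 121, 131, 102 and 146 CPM in controls (0.97 ± 0.15, adjusted p = 1.37e-05). None of the 3 genes had a tumour library within the control range.

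GlyP and Pgm1 were far apart between the genotypes at day 5, and neither had overlapping libraries. GlyP was at 227, 228, 215 and 235 CPM in day 5 tumour libraries and 85.5, 104, 88.7 and 76.7 CPM in controls (log2 change 1.35 ± 0.10, adjusted p = 5.82e-10). Pgm1 was at 351, 356, 342 and 351 CPM with tumours and 88.9, 100.2, 75.9 and 86.3 CPM in controls (1.99 ± 0.13, adjusted p = 4.08e-11). UGP, called at day 4, was at 176, 182, 139 and 169 CPM with tumours and 175, 156, 131 and 152 CPM in controls at day 5, with overlapping ranges (0.12 ± 0.11, adjusted p = 0.387). In the same comparison 4 of 10 muscle markers were higher and none lower. The 10 muscle markers summed to 158 to 343 CPM with tumours and 83.1 to 122 CPM in controls, without overlap. Mhc, a muscle myosin, was at 56.2 CPM in tumour replicate 3 and at 4.92 to 5.32 CPM in the other day 5 tumour libraries. Its level in controls was 3.45 to 6.71 CPM. The summed level of 9 haemocyte markers was 471 to 638 CPM with tumours and 423 to 507 CPM in controls, and 5 of them were higher and 1 lower. The 13 gut markers summed to 5.57 to 124 CPM with tumours and 8.95 to 114.9 CPM in controls, with Jon99Ci at 0 in both groups. The 10 testis markers summed to 79.1 CPM in tumour replicate 1, which also had the most genes detected of all libraries (12427), to 0.710 to 2.01 CPM in the other day 5 tumour libraries and to 3.29 to 5.12 CPM in controls. The part of these cells in the member results was not tested. Without the 2 tumour libraries richest in gut RNA, replicate 1 among them, and without the controls richest in salivary gland RNA, the members gave the same count of 6 higher and 1 lower.

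**Figure D2:**
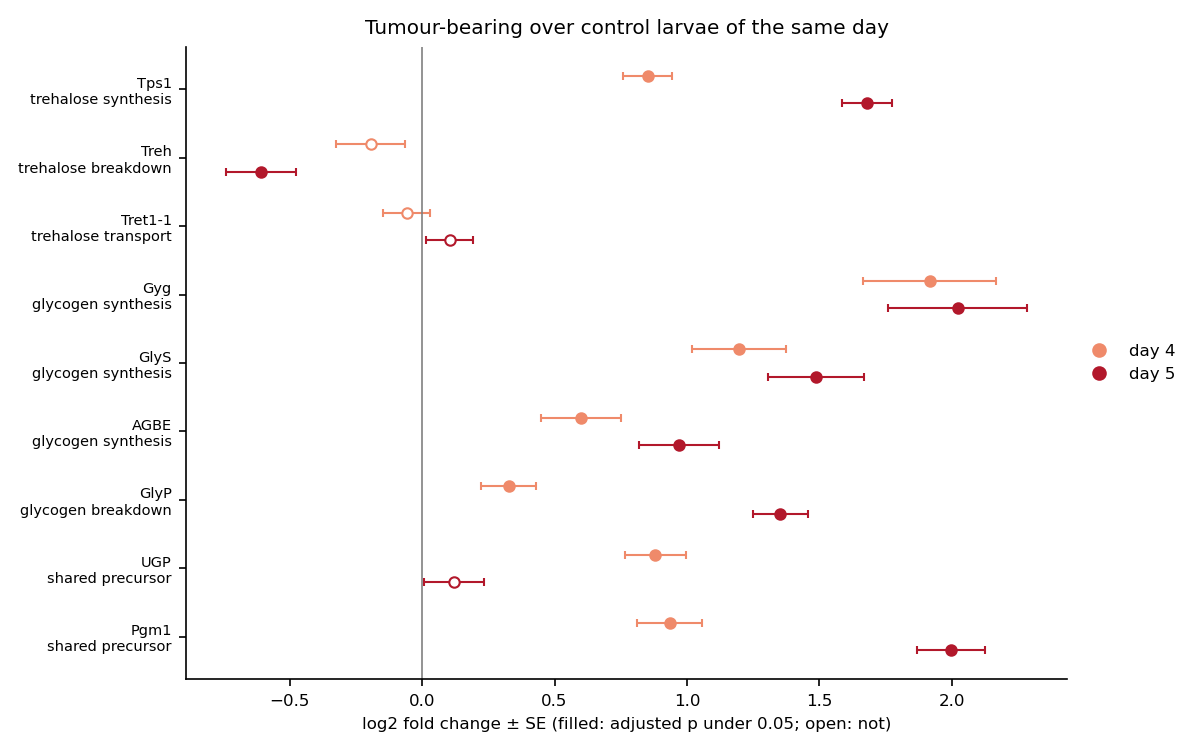
Log2 fold change ± SE of each gene in tumour-bearing over control larvae of the same day, at day 4 (orange) and day 5 (red), with filled points for an adjusted p under 0.05. Treh is the 1 gene called below 0, at day 5, and UGP is called at day 4 (0.88) and not at day 5 (0.12).

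Whether the tumour effect itself differed between the days was tested as an interaction, which called 4 of the 9 genes, 3 with a larger and 1 with a smaller value at day 5. Of all genes 28.8% were called (12.1% larger and 16.8% smaller). The tumour effect was larger at day 5 for Pgm1, by 1.06 ± 0.18 on the log2 scale (adjusted p = 9.02e-05), for GlyP, by 1.03 ± 0.15 (adjusted p = 1.64e-05), and for Tps1, by 0.83 ± 0.13 (adjusted p = 5.06e-05). For UGP it was smaller at day 5, with a difference of -0.76 ± 0.16 (adjusted p = 0.00116). The chain-building genes Gyg (0.11 ± 0.35), GlyS (0.29 ± 0.25) and AGBE (0.37 ± 0.21) gave differences that were not called. The signs for Gyg and GlyS depended on single libraries or pairs. Without the 2 control libraries richest in salivary gland RNA the differences were -0.51 for Gyg and -0.04 for GlyS. For Gyg the difference was also below 0 without day 4 control replicate 2 (-0.40), day 5 control replicate 3 (-0.012) or day 4 tumour replicate 1 (-0.023). Treh gave -0.41 ± 0.18 (adjusted p = 0.0972) and was called under 1 alternative, without day 4 tumour replicate 3 (-0.51, adjusted p = 0.037), and Tret1-1 gave 0.16 ± 0.13. The 2 day effects use separate controls, so the interaction compares 4 groups of 4 libraries. The interaction therefore takes in the change of controls between the days, and tumour and developmental stage cannot be told apart in it.

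In control larvae the same genes changed strongly from one day to the next. Of the 9 genes 6 were lower at day 5 than at day 4 and none was higher, where 55.0% of all genes were called (29.2% lower, 25.8% higher). The median log2 change was -1.74 over the 9 genes and -0.09 over all genes. AGBE fell by 2.04 ± 0.16 on the log2 scale (125 ± 18.4 CPM at day 5 and 515 ± 95.7 CPM at day 4, SD, n = 4 each), Gyg by 1.84 ± 0.26 and Pgm1 by 1.80 ± 0.13. GlyS fell by 1.77 ± 0.18, GlyP by 1.74 ± 0.11 and Tps1 by 1.10 ± 0.09, and adjusted p-values of the 6 genes lay between 3.75e-11 and 5.33e-06. No day 5 control library reached a day 4 control library for any of these 6, against 46.4% of all genes without overlap. Without the 2 libraries richest in salivary gland RNA, the change of Gyg was -1.23, and it was called there too. UGP (-0.22 ± 0.11, adjusted p = 0.114), Treh (0.25 ± 0.13, adjusted p = 0.111) and Tret1-1 (0.16 ± 0.09, adjusted p = 0.142) were not called. Tret1-1 was called higher at day 5 without the libraries richest in salivary gland RNA (0.24, adjusted p = 0.0302) and with DESeq2 (adjusted p = 0.044), and UGP was called lower without day 4 control replicate 4 (-0.29, adjusted p = 0.0436).

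In tumour-bearing larvae the 9 genes were followed to day 11. Tps1 averaged 2584 ± 365 CPM at day 4, 2139 ± 85.3 at day 5, 1926 ± 156 at day 8 and 2056 ± 36.7 at day 11 (SD, n = 4 each), so that no tumour library of any day came down to the day 4 controls. GlyP averaged 371 ± 33.7, 226 ± 8.47, 145 ± 10.1 and 135 ± 4.95 CPM at days 4, 5, 8 and 11. Pgm1 averaged 582 ± 25.6, 350.0 ± 5.67, 146 ± 19.1 and 127 ± 6.74 CPM over the same days. All of these averages lay above those of day 5 controls, at 88.6 ± 11.2 CPM for GlyP and 87.8 ± 9.998 CPM for Pgm1.

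The chain-building genes declined in the same span. AGBE averaged 781 ± 74.6 CPM at day 4, 245 ± 39.9 at day 5, 97.0 ± 17.4 at day 8 and 75.8 ± 7.93 at day 11. GlyS averaged 222 ± 34.6, 79.6 ± 10.02, 41.3 ± 4.95 and 35.9 ± 3.80 CPM, and Gyg 64.7 ± 12.2, 19.4 ± 2.17, 10.6 ± 1.27 and 8.09 ± 0.933 CPM. UGP averaged 328 ± 11.7 CPM at day 4 and then 167 ± 19.0, 173 ± 4.38 and 170.4 ± 16.1 CPM, with no call after day 5. Treh stayed between 75.9 ± 5.17 CPM at day 5 and 100.3 ± 17.6 CPM at day 8. Tret1-1 averaged 739.6 ± 35.7 CPM at day 4, 922.5 ± 52.1 at day 5, 934 ± 37.1 at day 8 and 1087 ± 58.2 at day 11.

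Step by step, day 5 against day 4 with tumours called 8 of the 9 genes, 7 lower and 1 higher, where 44.0% of all genes were called (24.5% lower and 19.6% higher). Gyg fell by 1.74 ± 0.25 (adjusted p = 7.48e-06), AGBE by 1.67 ± 0.15 (adjusted p = 2.15e-08) and GlyS by 1.48 ± 0.18 (adjusted p = 8.53e-07) on the log2 scale. UGP fell by 0.98 ± 0.12 (adjusted p = 5.85e-07), Pgm1 by 0.73 ± 0.12 (adjusted p = 5.17e-05) and GlyP by 0.71 ± 0.10 (adjusted p = 8.46e-06). The small change of Tps1 (-0.27 ± 0.09, adjusted p = 0.0195) depended on the scaling, since it was not called with RLE scaling (adjusted p = 0.0952), when the 20 most abundant genes were kept out of the scaling (adjusted p = 0.0832) or with DESeq2 (adjusted p = 0.0696). It was also not called in a model of these groups alone (adjusted p = 0.145), without day 4 replicate 4 (adjusted p = 0.0766) or without day 5 replicate 3 (adjusted p = 0.163). Tret1-1 was higher by 0.32 ± 0.09 (adjusted p = 0.00575), and not called without the 2 day 5 libraries richest in gut RNA (0.28, adjusted p = 0.0577).

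From day 5 to day 8, 6 of the 9 genes were called, 5 lower and 1 higher at day 8, where 26.1% of all genes were called (14.0% lower and 12.0% higher). Without the 2 day 5 libraries richest in gut RNA, 1193 genes were called in place of 2270, and 4 of the 9 members, all lower. AGBE fell by 1.34 ± 0.15 (adjusted p = 1.52e-06), Pgm1 by 1.26 ± 0.13 (adjusted p = 2.2e-07), GlyS by 0.95 ± 0.18 (adjusted p = 0.000423) and GlyP by 0.65 ± 0.10 (adjusted p = 7.58e-05). Gyg fell by 0.88 ± 0.25 (adjusted p = 0.0118), but not past the threshold without these 2 libraries (-0.84, adjusted p = 0.081). Treh was higher at day 8 by 0.40 ± 0.13 (adjusted p = 0.0266). That call was lost without the same 2 libraries, when the 20 most abundant genes were kept out of the scaling, and without any one of day 5 replicates 1, 3 and 4 and day 8 replicate 4 (adjusted p = 0.0597 to 0.141). Tps1 (-0.15 ± 0.09), UGP (0.05 ± 0.11) and Tret1-1 (0.02 ± 0.09) were not called.

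Between days 8 and 11 none of the 9 genes was called by edgeR or by DESeq2, where edgeR called 3.34% of all genes (1.72% higher and 1.62% lower). At an unadjusted p under 0.05, edgeR's test listed 2 of the 9, Tret1-1 (0.22 ± 0.09, adjusted p = 0.213) and AGBE (-0.36 ± 0.15, adjusted p = 0.238). Libraries of the 2 days did not overlap for Tret1-1 and Gyg, 2 of the 9 genes, against 17.2% of all genes. Over the tumour series the summed CPM of the 10 fat body markers ran from 544270 to 639979 at day 4, 274579 to 425596 at day 5, 96592 to 163038 at day 8 and 57624 to 78307 at day 11. Taken singly, 2 of the 10 were called higher and 5 lower at day 8 against day 5 (median log2 change -0.36). Of all genes, 12.0% were called higher and 14.0% lower in that step. At day 11 against day 8, none of the 10 was called higher and 2 were called lower (median -0.31). Haemocyte markers summed to 392 to 673, 471 to 638, 574 to 787 and 957 to 1163 CPM at days 4, 5, 8 and 11. Of these 9, 6 were higher and 1 lower at day 8 than at day 5, and 6 were higher and none lower at day 11 than at day 8. The part of these shifts in the later steps was not tested.

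**Figure D3:**
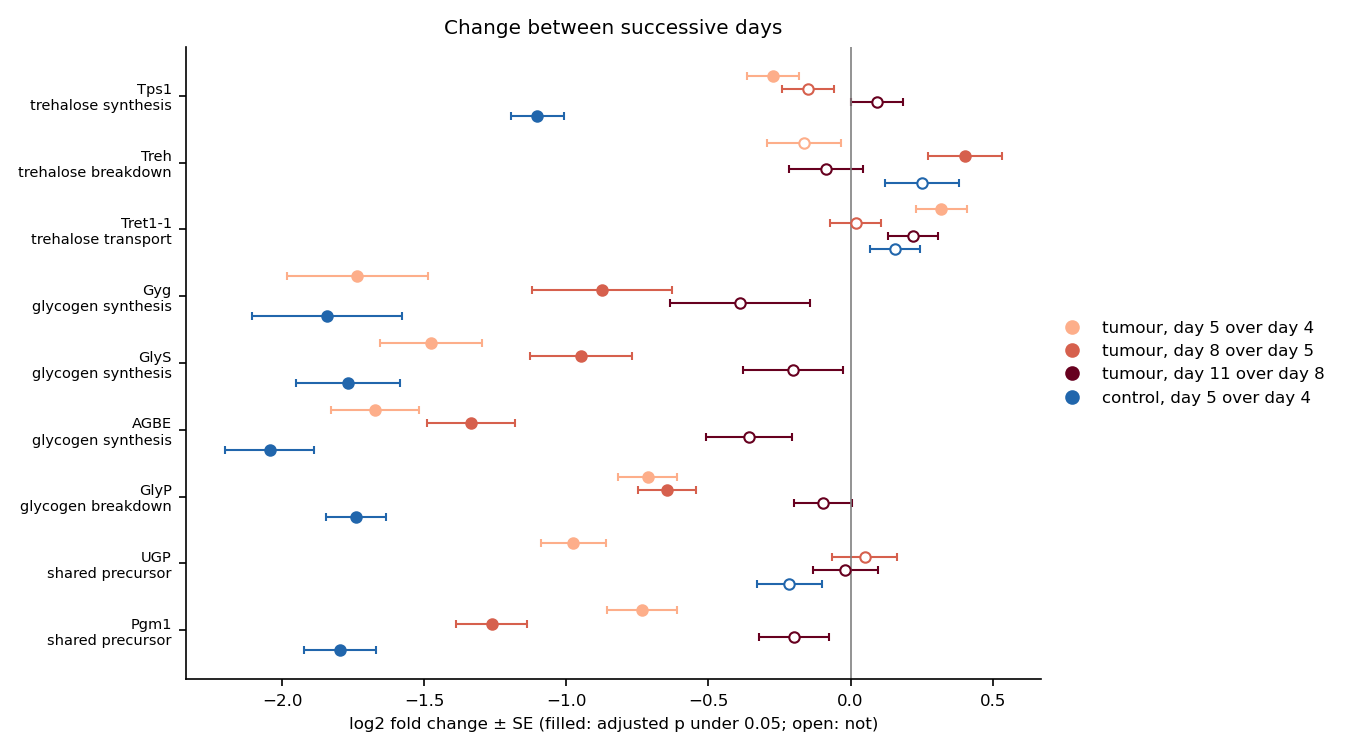
Log2 fold change ± SE between successive sampling days for each gene, with tumour-bearing larvae in orange to dark red and control larvae in blue, and filled points for an adjusted p under 0.05. For GlyP, Pgm1 and Tps1 the day 5 over day 4 change is smaller with tumours (-0.71, -0.73 and -0.27) than in controls (-1.74, -1.80 and -1.10), and for UGP it is larger with tumours (-0.98) than in controls (-0.22).

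Days 8 and 11 can be set only against controls of day 5, so age and tumour cannot be told apart there. At day 8, 5 of the 9 genes were higher than in day 5 controls and 1 was lower, where 54.4% of all genes were called (25.2% higher and 29.2% lower). Tps1 was higher by 1.53 ± 0.09, Gyg by 1.15 ± 0.26, Pgm1 by 0.73 ± 0.12, GlyP by 0.71 ± 0.10 and GlyS by 0.54 ± 0.18 on the log2 scale (adjusted p = 2.71e-11 to 0.0147). AGBE was lower by a log2 change of -0.37 ± 0.15 (adjusted p = 0.0458), a call lost under 7 alternatives. The call of GlyS was lost without day 5 control replicate 4 (adjusted p = 0.0565). Treh (-0.21 ± 0.13, adjusted p = 0.185), Tret1-1 (0.12 ± 0.09) and UGP (0.17 ± 0.11) were not called, and Treh was called lower without day 8 replicate 4 (-0.34, adjusted p = 0.0325). At day 11, 5 were higher and 1 lower than in day 5 controls, where 57.5% of all genes were called (27.4% higher and 30.1% lower). Tps1 (1.62 ± 0.09, adjusted p = 7.5e-12), GlyP (0.61 ± 0.10, adjusted p = 3.41e-05), Pgm1 (0.53 ± 0.12, adjusted p = 0.000938), Tret1-1 (0.34 ± 0.09, adjusted p = 0.00253) and Gyg (0.76 ± 0.26, adjusted p = 0.0166) were higher. Gyg was not called without day 5 control replicate 3 (0.64, adjusted p = 0.0595). AGBE was lower (-0.72 ± 0.15, adjusted p = 0.000354), and Treh (-0.29 ± 0.13, adjusted p = 0.0588), GlyS (0.34 ± 0.18, adjusted p = 0.112) and UGP (0.15 ± 0.11, adjusted p = 0.263) were not called. Each was called under an alternative: Treh without day 5 control replicate 2 (adjusted p = 0.0281), and GlyS (adjusted p = 0.0134) and UGP (adjusted p = 0.0482) with only these groups in the model. GlyS was also called with a replicate block (adjusted p = 0.0423).

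Tumour larvae of day 5 were also set against controls of day 4, a comparison added after the values were seen, in which age and tumour cannot be told apart either. It called 5 of the 9 genes, 2 higher and 3 lower, where 47.2% of all genes were called (21.5% higher and 25.7% lower). Tps1 was higher (0.58 ± 0.09, adjusted p = 2.37e-05), AGBE lower (-1.07 ± 0.15, adjusted p = 5.66e-06) and GlyP lower (-0.39 ± 0.10, adjusted p = 0.00394). Tret1-1 (0.26 ± 0.09, adjusted p = 0.0203) and Treh (-0.36 ± 0.13, adjusted p = 0.0287) were called as well, but the call of Tret1-1 was lost under 4 alternatives and that of Treh under 11. Gyg (0.18 ± 0.25), Pgm1 (0.20 ± 0.12), GlyS (-0.28 ± 0.18) and UGP (-0.10 ± 0.11) were not called. Without the 2 control libraries richest in salivary gland RNA, Gyg (0.68, adjusted p = 0.000958) and Pgm1 (0.37, adjusted p = 0.00302) were called higher.

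Levels were compared between genes per kilobase of exon sequence. Tps1 ranked first in 5 groups, with 885 ± 125 CPM per kilobase in day 4 tumour larvae and 491 ± 44.2 in day 4 controls. In day 5 controls it ranked 2, at 229 ± 15.1 CPM per kilobase, after Tret1-1 at 254 ± 31.4, and the libraries of the pair overlapped. Gyg was last in all 6 groups, from 15.6 ± 2.95 CPM per kilobase in day 4 tumour larvae down to 1.16 ± 0.211 in day 5 controls, although in day 4 tumour larvae its libraries overlapped those of Treh (19.5 ± 3.06). AGBE changed place most in tumour larvae: it ranked 2 at day 4 (336 ± 32.1, overlapping Pgm1 at 316 ± 13.9), 4 at day 5 (105 ± 17.2) and 6 at day 8 (41.8 ± 7.47, overlapping GlyP at 46.0 ± 3.21) and at day 11 (32.6 ± 3.42, below GlyP at 43.0 ± 1.57 without overlap).

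Ratios of transcripts within a library do not depend on library scaling, and are given per exon length, as values with no test. Tps1 to Treh, synthesis over breakdown, was 38.3 to 58.1 in day 4 tumour libraries and 17.2 to 30.7 in day 4 controls, and 39.2 to 44.9 in day 5 tumour libraries and 8.06 to 9.70 in day 5 controls. It was 21.5 to 34.9 at day 8 and 30.2 to 36.9 at day 11 with tumours. Tumour and control libraries of the same day did not overlap. GlyS to GlyP, the chain-extending over the chain-breaking enzyme, was 0.510 to 0.626 in day 4 tumour libraries and 0.264 to 0.382 in day 4 controls, but 0.285 to 0.359 in day 5 tumour libraries and 0.275 to 0.332 in day 5 controls, where the groups overlapped. At days 8 and 11 it was 0.243 to 0.295 and 0.219 to 0.263 with tumours. AGBE to GlyP, a ratio added after the values were seen, was 2.63 to 3.10, 1.21 to 1.66, 0.774 to 1.04 and 0.666 to 0.811 in tumour libraries of days 4, 5, 8 and 11, and 2.17 to 2.62 in controls of day 4 and 1.56 to 2.58 in controls of day 5. For AGBE to GlyP, tumour libraries lay above controls without overlap at day 4, and were mostly lower with overlap at day 5. Gyg to GlyP, also not among the ratios planned at first, did not overlap between the genotypes on either day. It was 0.111 to 0.141 with tumours and 0.0308 to 0.0668 in controls at day 4. At day 5 it was 0.0568 to 0.0738 with tumours and 0.0313 to 0.0543 in controls. Tumour libraries gave 0.0494 to 0.0636 at day 8 and 0.0392 to 0.0510 at day 11.

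**Figure D4:**
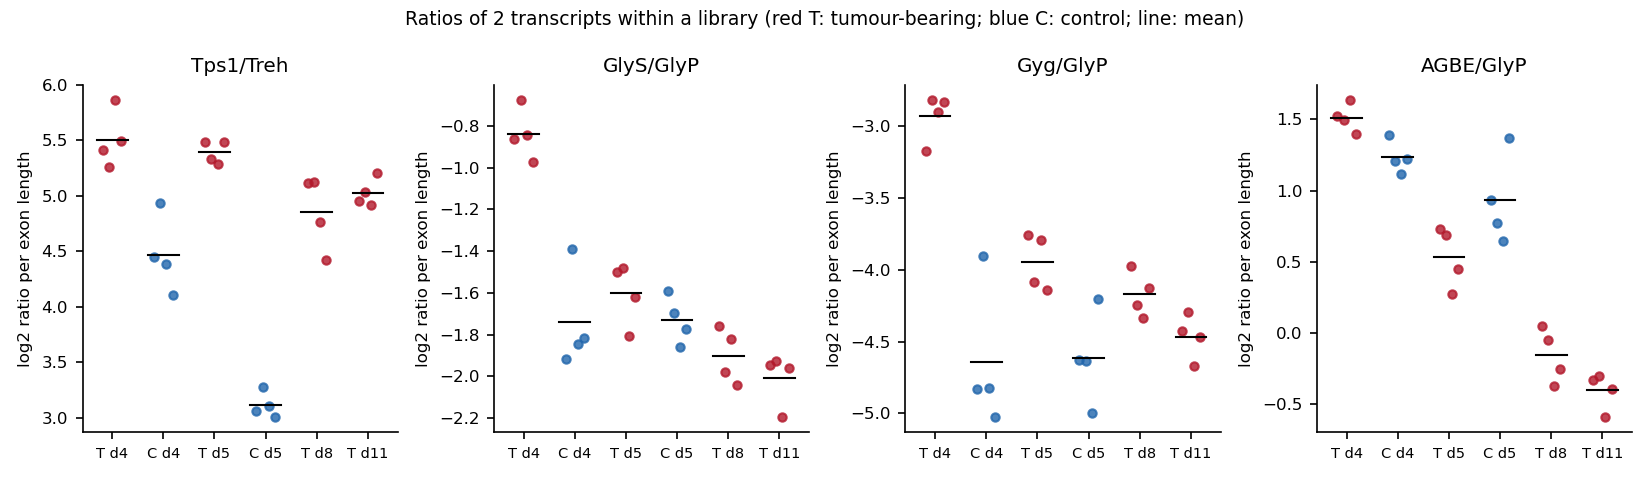
Log2 ratio of 2 transcripts per exon length in each library (T, tumour-bearing, red; C, control, blue; d, day; line, mean of 4). The Tps1/Treh ratio of tumour libraries lies above that of controls at both shared days (means of 5.51 and 4.47 at day 4, 5.40 and 3.11 at day 5), while GlyS/GlyP separates the genotypes at day 4 (-0.84 and -1.74) and overlaps at day 5 (-1.60 and -1.73). Gyg/GlyP separates them on both days (-2.93 and -4.64 at day 4, -3.94 and -4.62 at day 5).

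Other genes of the pathways did not share 1 direction. The counts of each list stand against the shares among all 8707 genes, which at day 4 were 14.6% higher and 10.5% lower (median 0.01) and at day 5 were 26.7% higher and 28.2% lower (median 0.03). Of 8 tested genes among 11 further trehalose and glycogen genes, 2 were higher and 3 lower with tumours at day 4 (median log2 change 0.19), and 1 was higher and 4 were lower at day 5 (median -0.05). CG5171, a predicted trehalose phosphatase, had the highest change at day 4, at 9.50 CPM with tumours and 0.482 CPM in controls (4.26 ± 0.47, adjusted p = 1.53e-06). At day 5 the highest was tobi, an alpha-glucosidase gene that responds to insulin and adipokinetic hormone, at 315, 358, 240.2 and 176 CPM with tumours and 23.5, 11.1, 3.99 and 9.52 CPM in controls, without overlap (4.50 ± 0.52, adjusted p = 2.64e-07). Tret1-2, the paralog of Tret1-1, was the lowest on both days (-1.10 ± 0.30, adjusted p = 0.00857 at day 4, and -0.99 ± 0.29, adjusted p = 0.00619 at day 5).

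All 11 glycogen regulators were tested: kinases, phosphatase subunits and the adipokinetic hormone receptor that act on GlyS or GlyP. At day 4, 3 were higher and 4 lower with tumours (median -0.18), and at day 5, 2 were higher and 7 lower (median -0.51). AkhR, the receptor of the hormone that mobilises fat body stores, was the highest at day 5, at 389, 369.6, 345 and 359.8 CPM with tumours and 108, 128, 72.5 and 106 CPM in controls, without overlap (1.82 ± 0.17, adjusted p = 6.27e-09). The lowest at day 5 was CG8475, a phosphorylase kinase regulatory subunit by homology, at 36.7 CPM on average with tumours and 289.7 CPM in controls (-2.98 ± 0.18, adjusted p = 1.41e-11). In controls CG8475 was the highest of the list at day 5 against day 4 (2.54 ± 0.17, adjusted p = 2.1e-10), while in tumour larvae it was the lowest (-0.70 ± 0.17, adjusted p = 0.00176). At day 4 the lowest was Gbs-70E, which targets protein phosphatase to glycogen, at 36.1 CPM with tumours and 139 CPM in controls (-1.94 ± 0.17, adjusted p = 1.31e-07).

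Hexose phosphate and gluconeogenesis genes, 10 of 11 tested, gave 4 higher and 2 lower with tumours at day 4 (median 0.48) and 5 higher and 3 lower at day 5 (median 0.76). Glut1, a glucose transporter, was the lowest at day 5, at 0.403 to 0.674 CPM with tumours and 140 to 218 CPM in controls (-8.46 ± 0.64, adjusted p = 5.31e-10), while day 4 controls were at 0.936 to 5.16 CPM. Of 9 genes that make, convert or use UDP-sugars or their precursors, 1 was higher and none lower at day 4 (median -0.00). At day 5, 4 were higher and 3 lower (median 0.45). Galk, galactokinase, was the highest on both days, with averages of 463 CPM with tumours and 155 CPM in controls at day 4 (1.58 ± 0.14, adjusted p = 1.36e-07) and 254 CPM with tumours and 68.9 CPM in controls at day 5 (1.88 ± 0.14, adjusted p = 4.48e-10). In controls at day 5 against day 4, this list had 2 higher and 6 lower (median -0.94) and the hexose phosphate list 2 higher and 6 lower (median -0.88), beside 0 higher and 6 lower of the 9 members, where the shares among all genes were 25.8% higher and 29.2% lower (median -0.09).

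Likeness of pattern was measured as Pearson's r of log2(CPM + 1) over the 24 libraries, which share group, age and RNA composition, and is given as a description. AGBE was most like Pgk (0.990) and Tpi (0.988), both enzymes of glycolysis. GlyS was most like Gpdh1 (0.993), a glycerol phosphate dehydrogenase, and Acbp2 (0.983). Pgm1 came with T3dh (0.984) and Ugt35A1 (0.984), GlyP with Aldh (0.976) and CG9331 (0.971), Gyg with Eglp4 (0.977) and CG6912 (0.965), and Tps1 with Idgf6 (0.976) and Cyp4ac1 (0.971). UGP (Agpat4, 0.927, and Cyp4p2, 0.916), Tret1-1 (Rfx, 0.905, and lncRNA:roX1, 0.895) and Treh (Start1, 0.836, and Ehbp1, 0.820) had lower highest values.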

How the data were processed

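Fat bodies were dissected from 24 pools of larvae, and their RNA was read in pairs of 150 bp, as the labels' protocol states. The deposited counts are whole reads per gene and library, which the authors did not normalize. STAR 2.5.4a and the build BDGP6 are named without a role, per the submitters' processing notes, while neither the counting program nor its annotation and strand setting is given in the sources used here. Groups follow the genotype and day in the labels. Symbols were found for 17559 of 17698 identifiers in the BDGP6.54 annotation (Ensembl release 115), which also gave coordinates and exon lengths. GlyS and GlyP are spelled Glys and Glyp there.

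The members and lists were chosen with earlier results of these data known. Counts were filtered with filterByExpr, scaled by TMM and tested with edgeR 4.0.16 (quasi-likelihood, robust) in R 4.3.3, with 1 model of 6 group means over all 24 libraries and 10 contrasts. The SE is the log2 fold change divided by the square root of F. TMM factors ran from 0.686 to 1.50 and differed by group. In tumour libraries they were 0.686 to 0.778 at day 4, 0.873 to 1.07 at day 5, 1.28 to 1.44 at day 8 and 1.45 to 1.50 at day 11. In controls they were 0.776 to 0.851 at day 4 and 0.855 to 0.916 at day 5. The code was tested on simulated counts. Alternatives were RLE scaling, scaling without the 20 most abundant genes, DESeq2 1.42.0, no low-count filter, a replicate block, no robust option, only the groups compared, each library left out in turn, and, added after seeing the data, 2 settings without libraries rich in salivary gland or gut RNA. All 9 members are named; of each list, the highest and lowest called gene of a comparison may be named. Of the list entries for related genes, 2 matched no gene and 1 was a duplicate. Within a group, chi-square per degree of freedom between pairs of libraries was 8.99 to 221, far above sampling noise.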

Additional observations from a re-analysis of the deposited data

Results flagged for a closer look

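In 3 of 54 sets of 4 libraries, 1 library of a member gene stood apart from the other 3 by Dixon's criterion, a number that chance gives at about 1 in 20 sets. Day 4 control replicate 2 was high for Gyg, at 32.0 CPM against 10.5 to 13.7 CPM in the other controls of that day, and for GlyS, at 147.5 CPM against 77.9 to 83.2 CPM. The same library had the most salivary gland RNA of its group (1491 CPM over 8 markers), and the part of that RNA in these values was not tested. Day 8 tumour replicate 1 was low for Tret1-1, at 879 CPM against 946 to 958 CPM in the other libraries of that day.

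The tumour effect differed between days 5 and 4 for 4 genes by the interaction test of edgeR. The difference, day 5 minus day 4 on the log2 scale, was 1.06 for Pgm1, 1.03 for GlyP, 0.83 for Tps1 and -0.76 for UGP.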

How the results depend on the processing

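Over 33 alternative settings, 1456 of 1530 values of the members kept their direction and their side of the threshold, 43 lost a call, 15 gained one and 16 changed sign, none of which was called in the first place. Changes of sign with single libraries left out gave ranges of -0.11 to 0.022 for Tret1-1 in tumours against controls at day 4 and -0.40 to 0.28 for Gyg in the difference of tumour effects. For day 8 against day 5 with tumours they gave -0.049 to 0.094 for UGP and -0.019 to 0.046 for Tret1-1, and for day 11 against day 8 they gave -0.15 to 0.042 for Treh and -0.081 to 0.029 for UGP. For tumour day 5 against control day 4 they gave -0.17 to 0.062 for UGP and -0.00012 to 0.68 for Gyg. When the 20 most abundant genes were kept out of the scaling, day 8 against day 5 gave -0.0076 for UGP and -0.037 for Tret1-1. Without the 2 control libraries richest in salivary gland RNA, the difference of tumour effects was -0.51 for Gyg and -0.036 for GlyS, and UGP in tumour day 5 against control day 4 was 0.044. The cause was not tested.

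Genes called in tumours against controls at day 4 numbered 1065 with only these groups in the model, against 2191 with all groups, and in day 8 against day 5 1193 without the 2 day 5 libraries richest in gut RNA, against 2270. For day 11 against day 8 the count was 291, with 554 by DESeq2, 187 without the low-count filter, 835 with only these groups and 137 to 277 with single libraries left out. Members called in tumour day 5 against control day 4 numbered 5, with 3 to 7 when single libraries were left out and 3 without the 2 gut-rich libraries. Other counts of members and genes stayed within 1.5 times. Other scalings moved the median of all tested genes by -0.05 to 0.08 on the log2 scale.

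Libraries of the same replicate number did not deviate together in every pair of groups (correlations of -0.30 to 0.51), so the numbers were not used as pairs. A replicate block changed 1 call of a member, GlyS in tumour day 11 against control day 5 (0.35, adjusted p = 0.0423), and gave 2105 genes called at day 4 and 4689 at day 5. Depth limits Gyg most, with 65 counts in its lowest library.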
